A study of Mus musculus with 24 samples.

Results

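The genes described here were the early growth response factors Egr1, Egr2 and Egr3, the corepressors Nab1 and Nab2 that bind these factors, the transcription factor Myc, its partner Max and the repressors Mxd1, Mxi1 and Mnt, which compete with Myc for Max. They were chosen by name, and each symbol matched 1 Ensembl identifier among the 56884 genes of the count table, so that 10 of 56884 genes are described. The RNA came from macrophages grown from the bone marrow (BMDM) of 4 wild-type female C57BL/6J mice, 9 weeks old and numbered 1, 2, 4 and 5, and every mouse gave 1 library in each of 6 conditions. All cells were grown with macrophage colony-stimulating factor, also the controls. The conditions were naive macrophages, macrophages given IL-4 and IL-13 at 20 ng/ml each for 24 hours, and macrophages pretreated for 1 hour with an inhibitor and then given the same cytokines with that inhibitor still present. Pretreatment was with 5 µg/ml tunicamycin, with 10 µM Sal003 or, in a pair of groups, with 1 µM oligomycin. In 1 of the oligomycin groups ISRIB was also present at 1 µM, and the labels conflict on which. The group whose library names read Oligo holds ISRIB by its titles, and the group whose library names read Oli_ISR holds it by those names. The groups are therefore called Oligo and Oli_ISR after the library names, no measured value was used to choose, and a difference between them is not read here as an effect of ISRIB. Between 16238727 and 26725278 reads were counted on genes per library, with a median of 18999998, and all 10 genes passed the filter on low counts.

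EGR proteins are zinc-finger activators whose genes respond within minutes to growth factor and mitogen-activated kinase signals. NAB1 and NAB2 have no DNA-binding domain of their own, dock on EGR proteins and bring the NuRD remodeler to them, and NAB2 is itself a classic EGR target. EGR2 is also known as a factor of macrophages activated by IL-4. MYC binds DNA only as a dimer with MAX, at sites called E-boxes, and drives genes of ribosome and nucleotide synthesis. MXD1, MXI1 and MNT form dimers with MAX at the same sites and repress through the SIN3 complex. The inhibitors act on the integrated stress response (ISR), in which phosphorylated eIF2α lowers translation while Atf4 is translated more. Tunicamycin blocks N-glycosylation and stresses the endoplasmic reticulum, Sal003 keeps eIF2α phosphorylated, oligomycin blocks the mitochondrial adenosine triphosphate synthase and ISRIB counteracts the ISR.

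Genes known to respond to the treatments were read first. Atf4, the transcription factor of the ISR, was at 136 ± 8.76 CPM (counts scaled to library size; mean ± SD, n = 4 mice, as in all values of this form) with IL-4/IL-13 alone, 1094 ± 19.5 with tunicamycin, 206 ± 30.8 with Sal003, 704 ± 3.31 in Oligo and 478 ± 20.0 in Oli_ISR. Its target Trib3 was at 3.55 ± 0.502, 835 ± 28.4, 33.8 ± 5.48, 542 ± 14.8 and 146 ± 4.35 CPM in the same order. Irf4, a factor induced by IL-4, was at 13.5 ± 0.567 CPM in naive cells and 308 ± 9.10 with IL-4/IL-13, and it was at 1.58 ± 0.441, 89.1 ± 16.0, 25.4 ± 0.847 and 74.0 ± 8.58 CPM with tunicamycin, Sal003, Oligo and Oli_ISR. Atf4 and Trib3 were thus higher and Irf4 lower in Oligo than in Oli_ISR, with no overlap, and these values stand beside the conflict in the labels without being used to settle it.

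The sites that EGR, MYC and serum response factors are known to bind were searched in the 250 bases before the RefSeq starts of the genes. Windows of assembly GRCm38.p6 were held for 7 of the 10 genes, and each of their 13 windows matched GRCm39 at 1 place. The letters GCGTGGGCG (an EGR site), CACGTG (the E-box), TTCNNNNGAA (a STAT6 site) and the CArG box of serum response factor were looked for on both strands, and no matches of different motifs overlapped. They were found in 0.536%, 6.02%, 5.85% and 1.47% of all 32851 windows of that length. These shares are per window, whereas Egr2 and Mxi1 had several windows each. G and C made up 80.8% of the bases in the Nab1 window, and the shares were not matched for this. They are therefore not the chance of a match in these genes. Egr2 held 2 CArG boxes and an E-box, and Nab1 held the EGR letters at 2 places. These matches are shown because Egr2 changed most and because Nab1 encodes a partner of EGR proteins. The search was added after the expression values had been seen. Capitals mark the motif, and all lines read 5′ to 3′ on the strand of the gene.
Egr2, CArG box, 72 to 63 bases before a start: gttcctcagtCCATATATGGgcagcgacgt
Egr2, CArG box, 72 to 63 bases before another start: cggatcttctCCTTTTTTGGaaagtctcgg
Egr2, E-box, 27 to 22 bases before its most upstream start: tcctcccgccCACGTGcaccgacggc
Nab1, EGR letters, 109 to 101 bases before the start: actcggccgcGCGTGGGCGggagccggag
Nab1, EGR letters on the opposite strand, 141 to 133 bases before the start: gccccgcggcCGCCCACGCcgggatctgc
In GRCm39 the first line is chr10:67373617-67373646 and its motif lies in no annotated exon. The second is chr10:67373314-67373343, under an exon of the noncoding RNA Gm66196 on the other strand, and the third is chr10:67371292-67371317, where the last 3 of the 6 motif bases lie in the first annotated exon of Egr2. The Nab1 lines are chr1:52539698-52539726 and chr1:52539730-52539758 on the minus strand, both in an annotated Nab1 exon. Of the windows of Mxi1, 1 held the STAT6 letters, and that of Mnt held an E-box, while these letters were not found in the windows of Nab2, Max and Mxd1. A match is a description of letters, and binding was not measured.

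Egr2 rose most of the 10 genes with IL-4/IL-13 and fell most with tunicamycin. Its gene lies at chr10:67371305-67378018 on the plus strand of GRCm39. In mice 1, 2, 4 and 5 its level was 11.8, 12.8, 14.4 and 15.7 CPM in naive cells and 411, 416, 391 and 422 CPM with IL-4/IL-13, a 30.0-fold rise (log2 fold change 4.91 ± 0.08 SE, adjusted p = 3.5e-24, edgeR quasi-likelihood test with Benjamini-Hochberg adjustment over 13679 genes, as for every adjusted p here). The lowest stimulated library was far above the highest naive one. With tunicamycin the level was 4.16, 2.86, 4.08 and 2.90 CPM, 118-fold below IL-4/IL-13 alone (log2 fold change −6.88 ± 0.09 SE, adjusted p = 3.3e-26). It was also 3.92-fold below naive cells, and every tunicamycin library was below every naive library. Sal003 left 249, 245, 263 and 233 CPM (log2 fold change −0.73 ± 0.06 SE, adjusted p = 5.1e-10). The Oligo libraries held 107, 107, 101 and 105 CPM (−1.97 ± 0.07 SE, adjusted p = 2e-18) and the Oli_ISR libraries 237, 234, 235 and 241 CPM (−0.79 ± 0.06 SE, adjusted p = 9.4e-11). All libraries with an inhibitor were below all libraries with the cytokines alone. The order of the conditions was IL-4/IL-13, Sal003, Oli_ISR, Oligo, naive and tunicamycin. Its only neighbors that overlapped were Sal003 and Oli_ISR, whose difference did not pass the test (adjusted p = 0.54). Oligo was 2.26-fold below Oli_ISR (log2 fold change −1.17 ± 0.06 SE, adjusted p = 4e-13), lower in 4 of 4 mice.

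**Figure D1:**
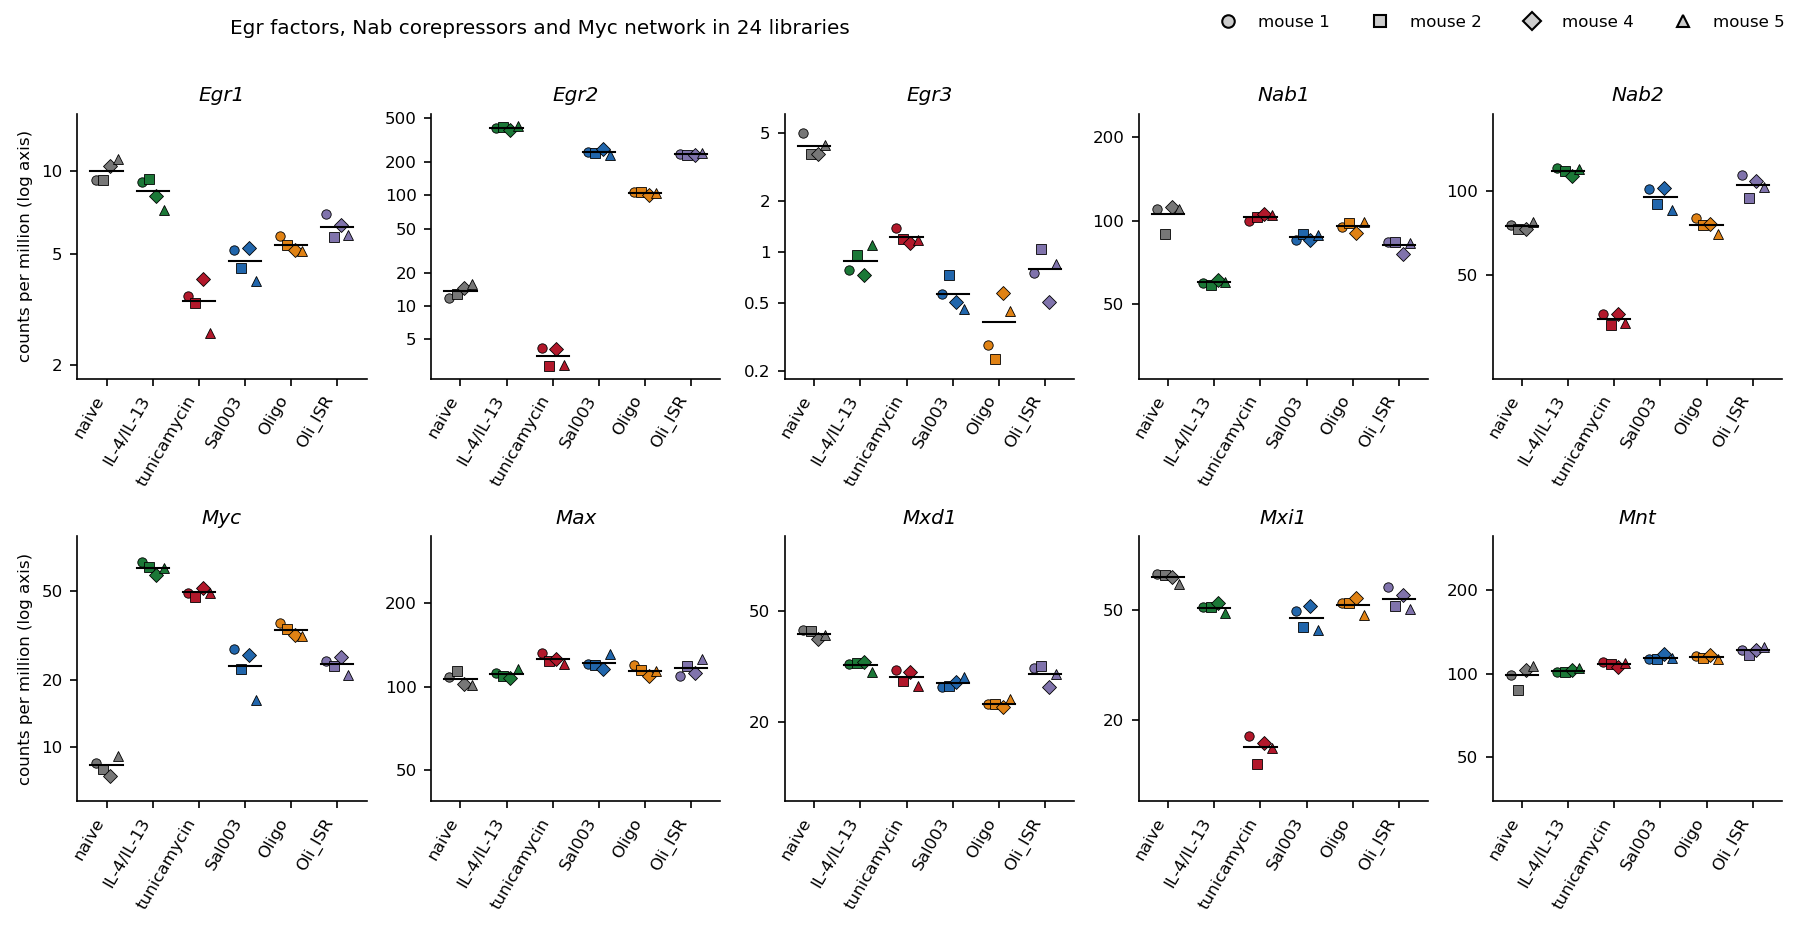
Level of each of the 10 genes in the 24 libraries, in CPM on a log axis, by condition; each point is 1 mouse, and the line is the mean of 4 mice. Egr2 spans from 2.86 CPM with tunicamycin to 422 CPM with IL-4/IL-13, whereas Max and Mnt stay between 87.3 and 132 CPM.

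Egr1 and Egr3, the other EGR factors among the 10 genes, did not share the rise. Egr1 (chr18:34992876-34998049, plus strand) was at 9.27, 9.27, 10.4 and 11.0 CPM in naive cells and 9.13, 9.33, 8.11 and 7.22 CPM with IL-4/IL-13. These groups overlapped, and the difference did not pass the test (log2 fold change −0.24 ± 0.11 SE, adjusted p = 0.06), whereas it did with the mouse as a replicate block (adjusted p = 0.034). Egr1 fell with every inhibitor against IL-4/IL-13, to 3.54, 3.33, 4.08 and 2.60 CPM with tunicamycin (−1.32 ± 0.12 SE, adjusted p = 3.3e-10), to 5.19, 4.45, 5.27 and 4.02 CPM with Sal003 (−0.84 ± 0.12 SE, adjusted p = 1.4e-06), to 5.82, 5.41, 5.18 and 5.15 CPM in Oligo (−0.65 ± 0.11 SE, adjusted p = 1.9e-05) and to 6.99, 5.79, 6.39 and 5.88 CPM in Oli_ISR (−0.44 ± 0.11 SE, adjusted p = 0.0019). No library with an inhibitor reached the lowest one with the cytokines alone. Oligo and Oli_ISR overlapped (adjusted p = 0.15).

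Egr3 (chr14:70314350-70320063, plus strand) was, per length, the least abundant of the 10 genes, with 5 to 102 counts per library. It was at 4.98, 3.75, 3.75 and 4.27 CPM in naive cells and 0.780, 0.958, 0.737 and 1.09 CPM with IL-4/IL-13, a 4.69-fold fall (log2 fold change −2.23 ± 0.20 SE, adjusted p = 3.8e-10) with no overlap between the groups. With tunicamycin it was at 1.39, 1.19, 1.13 and 1.17 CPM, above IL-4/IL-13 in 4 of 4 mice, but the difference did not pass the test (adjusted p = 0.067). The Oligo libraries held 0.284, 0.235, 0.576 and 0.450 CPM, 2.31-fold below IL-4/IL-13 (adjusted p = 0.00034), and Oli_ISR 0.758, 1.05, 0.509 and 0.852 CPM, which overlapped with it (adjusted p = 0.64). Sal003, at 0.571, 0.733, 0.510 and 0.463 CPM, was 1.56-fold below (adjusted p = 0.044), a call that was lost on leaving out any of the mice, with adjusted p between 0.056 and 0.28, and with DESeq2 (adjusted p = 0.094). Per length, in TPM (counts scaled to exon length and library size), Egr2 made up 56.2% ± 2.496 of the summed level of the 3 factors in naive cells, 98.3% ± 0.165 with IL-4/IL-13 and 50.2% ± 3.09 with tunicamycin. That share was 98.4% ± 0.121 with Sal003, 96.0% ± 0.168 in Oligo and 97.8% ± 0.148 in Oli_ISR.

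Nab1 and Nab2 moved in opposite directions with IL-4/IL-13 and with each inhibitor. Nab1 (chr1:52494147-52539838, minus strand) was at 111, 89.5, 112 and 110.2 CPM in naive cells and 59.8, 58.6, 61.3 and 60.3 CPM with IL-4/IL-13, a 1.76-fold fall (log2 fold change −0.82 ± 0.06 SE, adjusted p = 3.1e-12). It was higher than with the cytokines alone in 4 of 4 mice with each inhibitor, at 99.6, 104, 106 and 105 CPM with tunicamycin (0.79 ± 0.06 SE, adjusted p = 2.3e-12), at 85.6, 89.7, 85.5 and 89.3 CPM with Sal003 (0.54 ± 0.06 SE, adjusted p = 1e-08), at 95.4, 98.5, 90.3 and 99.1 CPM in Oligo (0.68 ± 0.06 SE, adjusted p = 8.7e-11) and at 83.8, 84.2, 76.1 and 83.6 CPM in Oli_ISR (0.45 ± 0.06 SE, adjusted p = 2.1e-07). The tunicamycin libraries overlapped with the naive ones (adjusted p = 0.64). Nab1 was 1.17-fold higher in Oligo than in Oli_ISR (adjusted p = 0.0017), with no overlap.

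Nab2 (chr10:127496786-127504458, minus strand) rose from 75.8, 73.3, 73.1 and 77.8 CPM in naive cells to 122, 118, 114 and 120.5 CPM with IL-4/IL-13 (1.58-fold, log2 fold change 0.66 ± 0.06 SE, adjusted p = 7.9e-10). With tunicamycin it fell to 36.3, 33.1, 36.1 and 33.7 CPM, 3.41-fold below IL-4/IL-13 (−1.77 ± 0.06 SE, adjusted p = 2.3e-18) and 2.16-fold below naive cells. All tunicamycin libraries were below all others. Sal003 held 102, 90.4, 103 and 86.0 CPM (−0.31 ± 0.06 SE, adjusted p = 9.9e-05) and Oligo 80.5, 75.5, 76.6 and 70.1 CPM (−0.65 ± 0.06 SE, adjusted p = 8.6e-10), and the latter overlapped with naive cells (adjusted p = 0.86). Oli_ISR held 115, 94.6, 109 and 104 CPM, which overlapped with IL-4/IL-13 at its top. Its difference (−0.16 ± 0.06 SE, adjusted p = 0.022) did not pass without mouse 2 (adjusted p = 0.15) or mouse 5 (adjusted p = 0.063). Nab2 was 1.40-fold lower in Oligo than in Oli_ISR (adjusted p = 4.9e-07). The ratio of Nab2 to Nab1 in TPM was 1.09 ± 0.1098 in naive cells, 3.01 ± 0.129 with IL-4/IL-13, 0.512 ± 0.0322 with tunicamycin, 1.66 ± 0.188 with Sal003, 1.205 ± 0.103 in Oligo and 1.97 ± 0.212 in Oli_ISR. Of the Nab2 exon bases, 38.1% are shared with genes on the other strand, 22.5% with the noncoding RNA Gm16229, 14.0% with Nemp1 and 1.65% with Stat6. How the counting treated strand is not given in the sources used here, and reads of these bases cannot be assigned without it. Over all libraries Gm16229 had 33 counts and Nemp1 7294, while Stat6 had 141446.

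Myc rose with the cytokines as Egr2 did but ranked the inhibitors the other way. Its gene lies at chr15:61857227-61862223 on the plus strand. Its level was 8.49, 8.02, 7.45 and 9.14 CPM in naive cells and 67.1, 64.0, 58.9 and 62.9 CPM with IL-4/IL-13, a 7.62-fold rise (log2 fold change 2.93 ± 0.11 SE, adjusted p = 2.1e-17). With tunicamycin it remained at 49.0, 46.9, 51.3 and 48.9 CPM, 1.29-fold below IL-4/IL-13 (−0.37 ± 0.09 SE, adjusted p = 0.00087) and 5.91-fold above naive cells. With Sal003 it was at 27.3, 22.3, 25.8 and 16.2 CPM, 2.76-fold below IL-4/IL-13 (−1.47 ± 0.10 SE, adjusted p = 4.7e-12), with mouse 5 lowest. Oligo held 35.8, 33.7, 31.8 and 31.5 CPM (−0.93 ± 0.09 SE, adjusted p = 3.4e-09) and Oli_ISR 24.3, 23.0, 25.3 and 20.98 CPM (−1.44 ± 0.10 SE, adjusted p = 4.7e-12). The order was IL-4/IL-13, tunicamycin, Oligo, Oli_ISR, Sal003 and naive, and only Oli_ISR and Sal003 overlapped among neighbors (adjusted p = 0.9). Myc was thus 2.14-fold higher with tunicamycin than with Sal003 (log2 fold change 1.10 ± 0.10 SE, adjusted p = 2.5e-10), where Egr2 was 71.0-fold lower (−6.15 ± 0.09 SE, adjusted p = 1.6e-25). Myc was 1.42-fold higher in Oligo than in Oli_ISR (0.51 ± 0.10 SE, adjusted p = 0.00017), where Egr2 was lower.

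**Figure D2:**
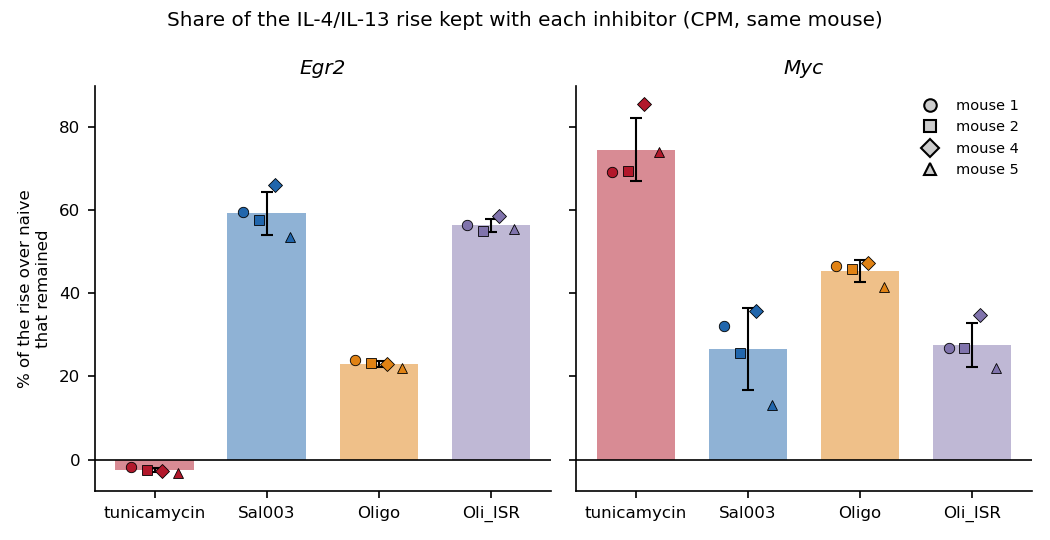
Share of the IL-4/IL-13 rise over naive cells that remained with each inhibitor, in percent of the difference in CPM within the same mouse, for Egr2 and Myc; bars are means, error bars SD and points the 4 mice. Egr2 kept 59.1% with Sal003 and was below naive with tunicamycin (−2.57%), whereas Myc kept 74.4% with tunicamycin and 26.6% with Sal003; for both genes the Sal003 and Oli_ISR values overlap.

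Within each mouse, the share of the Egr2 rise that remained was −2.57% ± 0.522 with tunicamycin, 59.1% ± 5.22 with Sal003, 23.0% ± 0.718 in Oligo and 56.3% ± 1.60 in Oli_ISR. For Myc it was 74.4% ± 7.59, 26.6% ± 9.88, 45.3% ± 2.58 and 27.6% ± 5.28 in the same order. These shares use the same naive and stimulated libraries for all inhibitors and were not tested.

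Max, the shared partner, changed little. Its gene lies at chr12:76984043-77009009 on the minus strand. It was at 106 ± 5.72 CPM in naive cells and 111 ± 3.70 with IL-4/IL-13 (adjusted p = 0.31). It was 1.13-fold higher with tunicamycin, at 126 ± 4.77 CPM (adjusted p = 0.0026), and 1.10-fold higher with Sal003, at 122 ± 6.53 CPM (adjusted p = 0.027), a call that was lost without any of the mice (adjusted p from 0.057 to 0.11) and with upper-quartile normalization (adjusted p = 0.14). Oligo, at 114 ± 4.24 CPM, and Oli_ISR, at 116 ± 7.41 CPM, overlapped with IL-4/IL-13 (adjusted p = 0.48 and 0.27). Each neighbor in the order of conditions overlapped the next.

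The repressors that share Max differed from one another. Mxi1 (chr19:53298852-53364241, plus strand) fell from 67.4, 66.7, 65.6 and 62.0 CPM in naive cells to 51.0, 51.1, 52.8 and 48.7 CPM with IL-4/IL-13 (1.28-fold, adjusted p = 5.4e-05). With tunicamycin it fell further, to 17.5, 13.9, 16.5 and 15.8 CPM, 3.20-fold below IL-4/IL-13 (log2 fold change −1.68 ± 0.08 SE, adjusted p = 2.1e-16). No other condition came near these libraries. It was at 46.7 ± 4.51 CPM with Sal003 (adjusted p = 0.14, or 0.041 with the replicate block), 52.2 ± 3.17 in Oligo (adjusted p = 0.67) and 54.8 ± 4.64 in Oli_ISR (adjusted p = 0.21), and all 3 overlapped with IL-4/IL-13. Mxd1 (chr6:86624024-86646218, minus strand), the repressor best known from differentiating myeloid cells, was at 42.7, 42.6, 39.7 and 41.1 CPM in naive cells and 32.4, 32.6, 32.8 and 30.1 CPM with IL-4/IL-13 (1.298-fold lower, adjusted p = 1.1e-06). It was lowest in Oligo, at 23.1, 23.1, 22.6 and 24.1 CPM, 1.38-fold below IL-4/IL-13 (adjusted p = 6.1e-08) and 1.28-fold below Oli_ISR (adjusted p = 8.5e-06). With Sal003 it was at 27.6 ± 1.03 CPM (adjusted p = 0.0021) and in Oli_ISR at 29.8 ± 2.27 (adjusted p = 0.12). With tunicamycin it was at 28.9 ± 1.86 CPM (adjusted p = 0.018), and the call was lost without mouse 1 (adjusted p = 0.067), mouse 2 (0.098) or mouse 5 (0.12) and without the filter on low counts (0.25).

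Mnt (chr11:74721338-74736836, plus strand), a repressor found in most cell types, was at 98.8 ± 8.30 CPM in naive cells and 103 ± 1.45 with IL-4/IL-13 (adjusted p = 0.32). With the inhibitors it was at 109 ± 1.76 CPM with tunicamycin (adjusted p = 0.095), 114 ± 2.65 with Sal003 (1.11-fold, adjusted p = 0.0047, or 0.058 without mouse 1), 115 ± 1.88 in Oligo (1.12-fold, adjusted p = 0.0021) and 121 ± 3.33 in Oli_ISR (1.18-fold, adjusted p = 5.2e-05). The 4 libraries of each inhibitor were above the 4 libraries with the cytokines alone.

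Counted over the 10 genes, IL-4/IL-13 against naive gave 3 higher (Egr2, Nab2 and Myc) and 4 lower (Egr3, Nab1, Mxd1 and Mxi1), where 30.1% of all genes tested were called higher and 30.4% lower. Tunicamycin against IL-4/IL-13 gave 2 higher (Nab1 and Max) and 6 lower, against 38.7% and 37.6% of all genes. Sal003 gave 3 higher (Nab1, Max and Mnt) and 6 lower, against 25.9% and 24.6%. Oligo gave 2 higher (Nab1 and Mnt) and 6 lower, against 34.0% and 32.2%. Oli_ISR gave the same 2 higher and 4 lower, against 27.9% and 26.4%. Egr1, Egr2, Nab2 and Myc were lower and Nab1 was higher in each of these 4 comparisons, which share their control libraries. Oligo against Oli_ISR gave 2 higher (Nab1 and Myc) and 4 lower (Egr2, Egr3, Nab2 and Mxd1), against 19.9% and 21.3% of all genes. The lower level of Egr3 there did not pass without mouse 2 (adjusted p = 0.074). Nothing particular to the 10 genes is read from these counts.

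With a 2.5-fold change in addition, 3 of the 10 were called for IL-4/IL-13 against naive (Egr2, Egr3 and Myc; 11.5% of all genes), 4 with tunicamycin (Egr1, Egr2, Nab2 and Mxi1; 22.6%), 1 with Sal003 (Myc; 7.71%), 1 in Oligo (Egr2; 12.7%) and 1 in Oli_ISR (Myc; 7.96%). Against naive cells, 9 of the 10 differed with tunicamycin (77.6% of all genes in either direction), 10 with Sal003 (62.5%), 8 in Oligo (71.0%) and 10 in Oli_ISR (63.8%). Between inhibitors, 7 differed between tunicamycin and Sal003 (71.9%) and 8 between tunicamycin and Oligo (63.5%). Oli_ISR and Sal003 differed for Egr1 and Mxi1, 2 of the 10 (18.5%), both at values that did not pass without mouse 1, 2 or 5. Nab2 also passed with the mouse as a replicate block (0.15 on the log2 scale, adjusted p = 0.035).

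**Figure D3:**
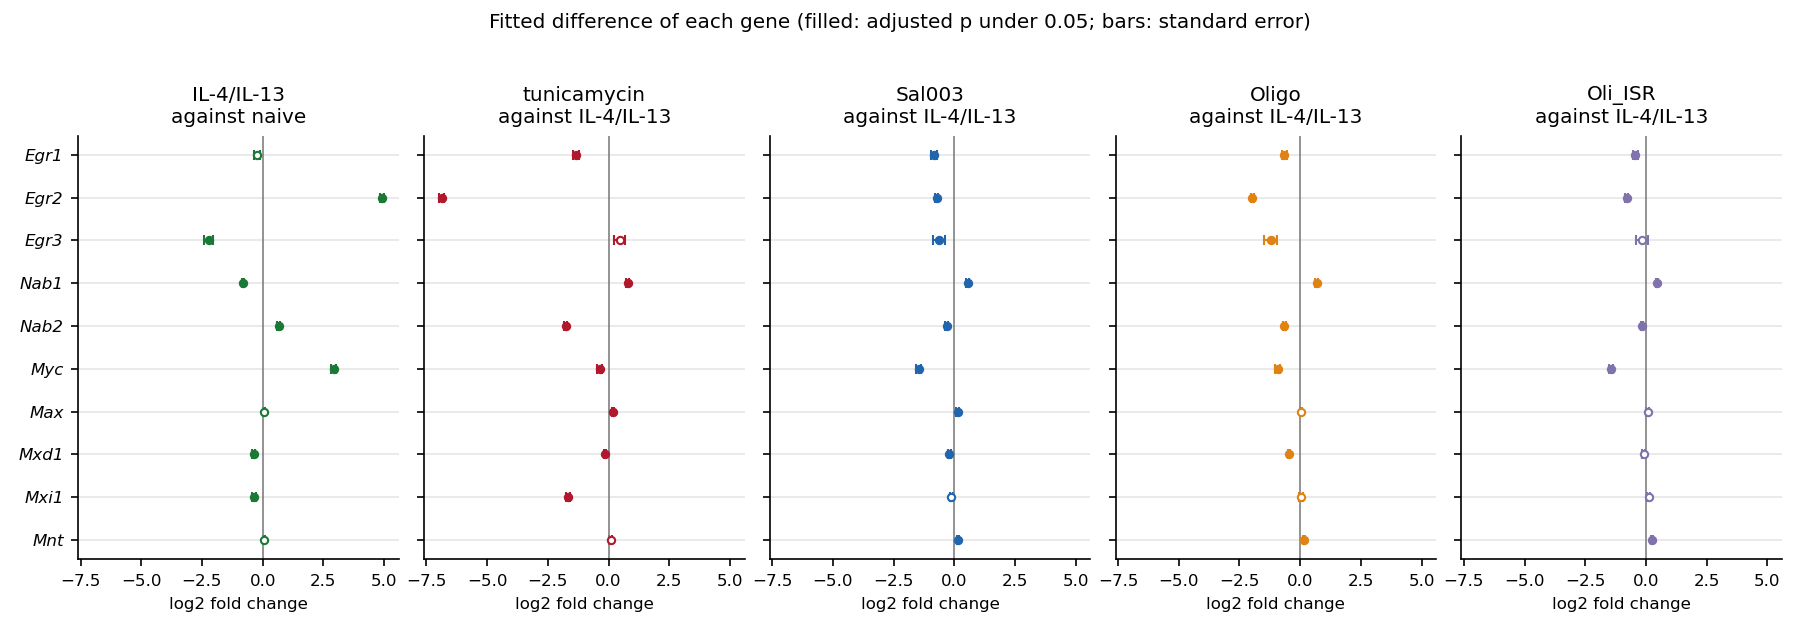
Fitted log2 fold change of each of the 10 genes in 5 comparisons, with its standard error; filled points have an adjusted p under 0.05. Egr2 stands at 4.91 with IL-4/IL-13 and at −6.88 with tunicamycin, and Nab1 lies on the side opposite to Nab2 in all 5 panels.

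Levels can be set beside each other between genes only per length. In naive cells the mean levels in TPM were 120 for Max, 90.3 for Mnt, 78.0 for Nab2, 72.3 for Nab1, 43.7 for Mxi1, 27.5 for Mxd1, 19.5 for Egr2, 14.7 for Myc, 10.8 for Egr1 and 4.33 for Egr3. With IL-4/IL-13, Egr2 at 550 TPM was the most abundant of them, ahead of Max at 118, Nab2 at 116 and Myc at 106. The ratio of Egr2 to both NAB genes together was 0.1297 ± 0.0149 in naive cells, 3.55 ± 0.0765 with IL-4/IL-13, 0.0466 ± 0.00920 with tunicamycin, 2.22 ± 0.0513 with Sal003, 1.04 ± 0.0244 in Oligo and 2.03 ± 0.0994 in Oli_ISR. The ratio of Myc to the sum of Mxd1, Mxi1 and Mnt was 0.0911 ± 0.00742, 0.756 ± 0.0466, 0.676 ± 0.0270, 0.264 ± 0.0532, 0.3801 ± 0.0223 and 0.249 ± 0.0191 in the same order.

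Of 10 further genes of the MAX and MLX network, 8 were tested. Mxd4, a MAX-binding repressor linked to arrested growth, was at 238 ± 10.8 CPM in naive cells and rose to 407, 385, 389 and 391 CPM with IL-4/IL-13 (1.65-fold, adjusted p = 4.1e-08). It fell to 69.2, 66.4, 64.0 and 70.7 CPM with tunicamycin (5.82-fold, log2 fold change −2.54 ± 0.09 SE, adjusted p = 1.3e-18), to 173, 176, 198 and 135 CPM with Sal003 (2.31-fold, adjusted p = 1.1e-11), to 57.8, 54.9, 54.2 and 45.9 CPM in Oligo (7.39-fold, −2.88 ± 0.09 SE, adjusted p = 7.1e-19) and to 143, 117, 134 and 119 CPM in Oli_ISR (3.06-fold, adjusted p = 4.9e-14). All libraries with an inhibitor were below all naive libraries. Per length Mxd4 was the most abundant of the repressors with IL-4/IL-13, at 208 TPM against 88.1 for Mnt, and in Oligo it was at 31.4 against 110.4 for Mnt. With Mxd3 and Mxd4 added to the sum, the ratio of Myc to its antagonists was 0.0498 ± 0.00420 in naive cells, 0.299 ± 0.0141 with IL-4/IL-13, 0.522 ± 0.0232 with tunicamycin, 0.162 ± 0.0274 with Sal003, 0.319 ± 0.0160 in Oligo and 0.174 ± 0.0116 in Oli_ISR. In the ratio over 3 repressors, tunicamycin thus stood below IL-4/IL-13 in 3 of 4 mice and Oligo in 4 of 4, and both stood above it in 4 of 4 mice in the ratio over 5, a sum chosen with the values known.

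**Figure D4:**
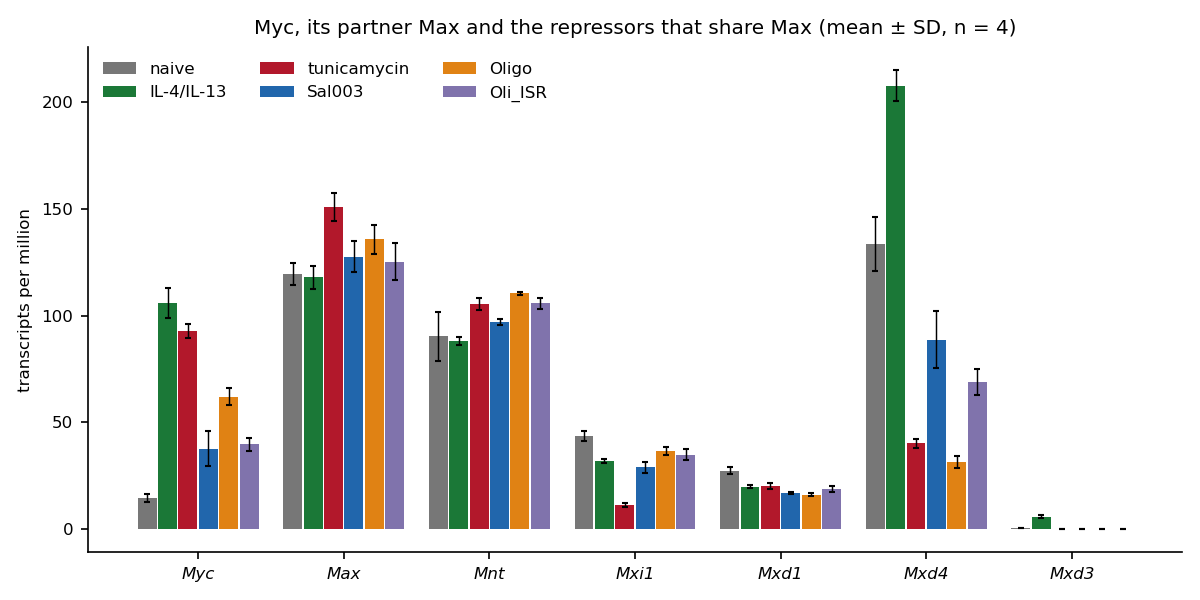
Level of Myc, Max and the repressors Mnt, Mxi1, Mxd1, Mxd4 and Mxd3 in TPM, by condition; bars are means and error bars SD of 4 mice. Mxd4 goes from 208 TPM with IL-4/IL-13 to 31.4 in Oligo, while Mnt stays between 88.1 and 110.4 TPM.

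Mxd3, a repressor expressed in proliferating cells, had 6 to 9 counts per library in naive cells and 58 to 81 with IL-4/IL-13 (0.403 ± 0.0696 and 3.6003 ± 0.423 CPM). It was at 0 to 2 counts with tunicamycin, 1 to 2 with Sal003, 0 to 3 in Oligo and 1 to 4 in Oli_ISR. It passed the low-count filter only through IL-4/IL-13, so no test or fold is given. Mycl, a relative of Myc, had 21 to 33 counts per library in naive cells, 5 to 8 with IL-4/IL-13 and at most 3 with any inhibitor, and passed the filter only through the naive libraries. Mlx, the partner of the glucose-sensing factors, rose with each inhibitor, by 1.06 on the log2 scale in Oligo (84.1 ± 2.35 against 40.3 ± 0.541 CPM, adjusted p = 5.5e-16) and 0.74 with tunicamycin (67.4 ± 0.842 CPM, adjusted p = 2.9e-13). Over all genes tested, 30.1%, 38.7%, 25.9%, 34.0% and 27.9% were called higher and 30.4%, 37.6%, 24.6%, 32.2% and 26.4% lower with IL-4/IL-13, tunicamycin, Sal003, Oligo and Oli_ISR, and the counts of each list are to be read against these shares. Leaving out Mxd3 and Mycl, 2 of the other 6 genes were higher and 0 lower with IL-4/IL-13, and 2, 1, 2 and 1 were higher and 3, 2, 4 and 2 lower with tunicamycin, Sal003, Oligo and Oli_ISR. Mycn was at 2 counts or fewer in every library.

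Known MYC targets, most of them genes of ribosome and nucleotide synthesis, were mostly higher with tunicamycin and in Oligo, where Myc was lower than with IL-4/IL-13 alone. With IL-4/IL-13, 18 of 21 were higher and 0 lower, with a median log2 fold change of 0.54 against −0.02 over all genes, led by Rrs1 of ribosome assembly (0.90 ± 0.05 SE, adjusted p = 5.4e-14). With tunicamycin 17 were higher than with the cytokines alone and 2 lower (median 0.81 against 0.01 over all genes), where 38.7% and 37.6% of all genes were called. Srm, which makes spermidine, went from 19.5 ± 0.389 CPM to 150.5 ± 4.35 (7.70-fold, adjusted p = 1.1e-20) and Cad, which starts pyrimidine synthesis, rose 3.82-fold (adjusted p = 8e-20), whereas Ldha, of lactate production, fell 2.38-fold (adjusted p = 4e-15) and the cyclin Ccnd2 fell 2.36-fold (adjusted p = 3.1e-07). In Oligo 17 were higher and 2 lower (median 0.51), with the chaperone Hspd1 at 0.87 ± 0.04 SE (adjusted p = 1.1e-15). With Sal003 7 were higher and 3 lower (median −0.02), and in Oli_ISR 7 were higher and 4 lower (median −0.03), and in both Ldha was the gene that rose most (0.61 ± 0.06 and 0.58 ± 0.06 SE, adjusted p = 1.4e-08 and 3e-08). Oligo against Oli_ISR gave 16 higher and 0 lower (median 0.33 against −0.002 over all genes), where 19.9% and 21.3% of all genes were called. Srm was at 0.97 ± 0.08 SE there (adjusted p = 1.1e-09). Of all genes, 30.1% were higher and 30.4% lower with IL-4/IL-13, and 34.0% and 32.2% in Oligo. These shares were 25.9% and 24.6% with Sal003, and 27.9% and 26.4% in Oli_ISR.

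**Figure D5:**
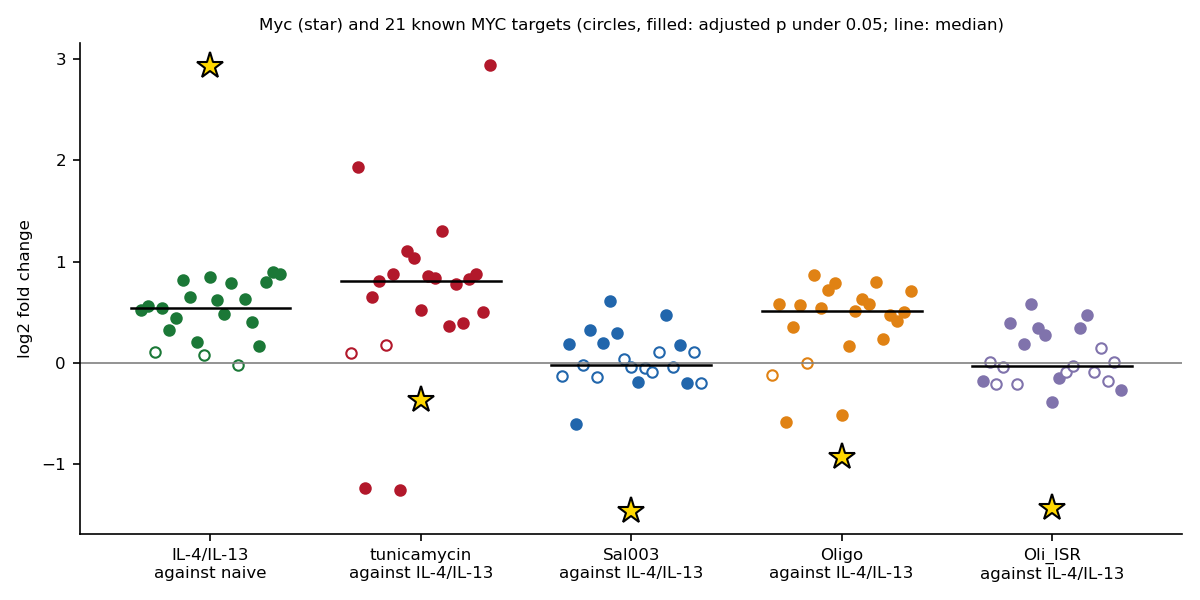
Fitted log2 fold change of Myc (star) and of 21 known MYC targets (circles, filled where the adjusted p is under 0.05, with the line at their median) in 5 comparisons. Myc is at −0.37 with tunicamycin and −0.93 in Oligo, where the medians of the targets are 0.81 and 0.51.

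Among 6 genes of MYC turnover, Pim1, a kinase known to stabilize MYC, was higher with IL-4/IL-13 (log2 fold change 0.69 ± 0.06 SE, adjusted p = 1.5e-10) and higher again with each inhibitor, from 0.29 ± 0.06 SE with Sal003 (adjusted p = 0.0001) to 0.98 ± 0.06 SE in Oligo (adjusted p = 9.3e-14). Fbxw7, of the ubiquitin ligase that degrades MYC, was highest in Oligo (1.19 ± 0.06 SE, adjusted p = 1.6e-14), and Usp28, a deubiquitinase that counters it, was lower with each inhibitor, most with tunicamycin (−1.18 ± 0.09 SE, adjusted p = 5.1e-12). With IL-4/IL-13 3 of 6 were higher and 0 lower, and with the inhibitors 4, 2, 3 and 3 were higher and 2, 1, 2 and 2 lower, in the order tunicamycin, Sal003, Oligo and Oli_ISR. Of all genes, 30.1% were higher with IL-4/IL-13 and 25.9% to 38.7% with the inhibitors. No result about the list is read from counts over 6 genes.

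NAB and MXD proteins recruit the NuRD and SIN3 complexes. Of 16 subunits, 7 were higher and 4 lower with IL-4/IL-13 (median log2 fold change 0.02), against 30.1% and 30.4% of all genes, with Chd3 of NuRD lowest (−1.37 ± 0.06 SE, adjusted p = 1.7e-15) and Rbbp7 highest (0.39 ± 0.05 SE, adjusted p = 8.6e-08). With tunicamycin 5 were higher and 6 lower, with Sal003 4 and 8, in Oligo 5 and 6, and in Oli_ISR 4 and 6. Sap30, a SIN3 subunit, was the highest of them with Sal003 (0.95 ± 0.09 SE, adjusted p = 1.5e-09), in Oligo (1.05 ± 0.09 SE, adjusted p = 8.9e-11) and in Oli_ISR (1.13 ± 0.09 SE, adjusted p = 4.9e-11). Chd4, the NuRD ATPase that NAB2 is known to bind, fell by 0.79 on the log2 scale with tunicamycin (adjusted p = 2.9e-10).

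Upstream of the EGR genes, 10 genes of serum response factor, its ternary complex partners and the kinases of the ERK cascade gave 3 higher and 4 lower with IL-4/IL-13, near the 30.1% and 30.4% of all genes, with Elk3 lowest (−1.16 ± 0.05 SE, adjusted p = 4.7e-17). With tunicamycin 5 were higher and 3 lower, with Sal003 4 and 2, in Oligo 5 and 2 and in Oli_ISR 6 and 2, with the kinase Braf highest in Oligo (0.96 ± 0.08 SE, adjusted p = 5.6e-11) and Map2k1 highest with tunicamycin (0.71 ± 0.04 SE, adjusted p = 6.2e-14).

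Of 9 feedback genes of that cascade, which encode phosphatases and inhibitors of ERK signaling, 8 were tested, and 5, 6, 3 and 5 were lower and 0, 1, 1 and 1 higher with tunicamycin, Sal003, Oligo and Oli_ISR. Their median log2 fold changes were −1.31, −0.75, −0.22 and −0.40, against 0.01, 0.00, 0.01 and 0.00 over all genes. Dusp5, a nuclear ERK phosphatase, went from 11.4 ± 0.449 CPM with IL-4/IL-13 to 0.811 ± 0.168 with tunicamycin (14.0-fold, adjusted p = 4.2e-19), 2.15 ± 0.181 with Sal003, 2.71 ± 0.202 in Oligo and 3.58 ± 0.394 in Oli_ISR. Dusp4, of the same family, rose with IL-4/IL-13 from 13.5 ± 4.08 to 72.8 ± 3.17 CPM and then parted between inhibitors. It was at 7.06 ± 1.25 CPM with tunicamycin (10.3-fold lower, adjusted p = 1e-17) but at 153 ± 10.7, 186 ± 6.57 and 172 ± 9.67 CPM with Sal003, Oligo and Oli_ISR (2.10-, 2.55- and 2.36-fold higher, adjusted p = 3.9e-09, 2.3e-11 and 2.5e-10). With IL-4/IL-13 against naive 4 of the 8 were higher and 3 lower.

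Of 13 other immediate early genes 12 were tested. With IL-4/IL-13 4 were higher, led by Atf3 (1.53 ± 0.05 SE, adjusted p = 6e-19), and 5 lower, led by Nr4a1 (−1.86 ± 0.15 SE, adjusted p = 1.2e-10). With tunicamycin 11 were lower and 0 higher (median −1.15 against 0.01 over all genes, of which 37.6% were lower and 38.7% higher), with Fos, the partner of Jun, lowest (−3.65 ± 0.14 SE, adjusted p = 4.4e-18). With Sal003, Oligo and Oli_ISR 7, 6 and 5 were lower and 1 each was higher, and the growth-inhibiting gene Btg2 was lowest in all 3 (−1.36 ± 0.06, −2.46 ± 0.06 and −1.35 ± 0.06 SE, adjusted p = 8.6e-16, 6.7e-21 and 5.4e-16).

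In the IL-4 receptor pathway, Cish, a feedback inhibitor induced by STAT factors, went from 1.83 ± 0.382 CPM in naive cells to 89.2 ± 4.99 with IL-4/IL-13 and to 1.86 ± 0.585, 31.3 ± 5.87, 13.6 ± 1.05 and 28.1 ± 3.74 CPM with tunicamycin, Sal003, Oligo and Oli_ISR (adjusted p from 1.9e-20 to 2.5e-11 against IL-4/IL-13). Socs1, another such inhibitor, was at 3.66 ± 1.02 CPM in naive cells, 63.8 ± 6.98 with IL-4/IL-13 and 4.16 ± 0.409 with tunicamycin, but at 75.2 ± 6.14, 71.1 ± 3.89 and 62.7 ± 8.32 CPM with the other inhibitors. Stat6, the factor activated by the receptor, was at 331 ± 18.8, 306 ± 8.03, 216 ± 5.18, 360.3 ± 8.53, 292 ± 6.996 and 325 ± 13.8 CPM in naive, IL-4/IL-13, tunicamycin, Sal003, Oligo and Oli_ISR libraries. The receptor chain gene Il13ra1 was lower with IL-4/IL-13 (−1.997 ± 0.10 SE, adjusted p = 3.1e-15) and higher with each inhibitor, most with tunicamycin (2.94 ± 0.09 SE, adjusted p = 1.8e-19). Of the 9 genes of the list 2 were higher and 4 lower with IL-4/IL-13 (30.1% and 30.4% of all genes). With tunicamycin, Sal003, Oligo and Oli_ISR 3, 4, 3 and 2 were higher and 4, 1, 3 and 2 lower. Over all genes 38.7%, 25.9%, 34.0% and 27.9% were higher and 37.6%, 24.6%, 32.2% and 26.4% lower in that order. No result about the list is read from counts over 9 genes.

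Across the 24 libraries, which share mice and conditions, the log2 CPM of Egr2 and Nab2 had a Pearson r of 0.914, Egr3 and Mxd1 an r of 0.898 and Nab2 and Mxi1 an r of 0.841, as a description only. The genes with the pattern most like Egr2 among those with a mean of 50 or more counts were Clic4 (r = 0.994), Pcna (0.992) and Plekhf1 (0.991). Pcna, the sliding clamp of DNA replication, was at 375 ± 10.7 CPM with IL-4/IL-13 and 92.7 ± 2.86 with tunicamycin. Those most like Myc were Septin11 (r = 0.978), Nucks1 (0.959) and G3bp1 (0.956), and Septin11 was at 33.1 ± 3.51, 170.4 ± 3.80 and 148 ± 3.62 CPM in naive, IL-4/IL-13 and tunicamycin libraries. Mical2, Ap1s3 and Tfeb were most like Nab2 (r = 0.990, 0.989 and 0.988), Ube2h, Cgnl1 and Gab1 most like Egr1 (0.955, 0.954 and 0.953), Cdkn1b, Arap3 and Dennd1c most like Egr3 (0.953, 0.949 and 0.949) and Eid1, Neurl3 and Nfatc2 most like Mxd1 (0.963, 0.957 and 0.954). With a prior count of 0.5, Plekhf1 came 6th for Egr2 and Dennd1c 4th for Egr3, and Cdkn1b and Arap3 exchanged places.

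Markers of macrophages and of other cells were read in the same libraries. All 8 macrophage markers were tested, and their summed level, led by Lyz2, was 34241 ± 3060 CPM in naive cells, 12185 ± 1115 with IL-4/IL-13 and 17343 ± 703, 14331 ± 823, 9126 ± 349 and 14220 ± 841 with tunicamycin, Sal003, Oligo and Oli_ISR. The single markers parted, with 0 of 8 higher and 7 lower with IL-4/IL-13, and 4, 3, 3 and 3 higher and 3, 2, 4 and 2 lower with the inhibitors in that order. With tunicamycin, Adgre1 was highest of them (log2 fold change 2.77 ± 0.07 SE, adjusted p = 7.7e-21) and Csf1r lowest (−2.18 ± 0.07 SE, adjusted p = 1.5e-19). Neutrophil genes were lower with the inhibitors. Their sum over 6 genes, led by S100a9, was 43.3 ± 12.6 CPM in naive cells, 26.6 ± 6.48 with IL-4/IL-13, 0.1097 ± 0.124 with tunicamycin, 5.25 ± 1.17 with Sal003, 2.69 ± 0.889 in Oligo and 16.5 ± 1.83 in Oli_ISR. With tunicamycin this sum ran from 0 to 0.286 CPM, so the 4 genes tested passed the low-count filter only through other conditions. No count of calls is therefore given for them. The neutrophil surface gene Ly6g had at most 3 counts in any library. In bulk RNA, fewer cells of a type and less RNA per cell cannot be told apart. Fibroblast genes, 4 of 4 tested and led by Col1a2, summed to 77.5 ± 46.5 CPM in naive cells, from 17.2 to 130.5 between mice, 48.7 ± 27.8 with IL-4/IL-13 and 15.2 ± 8.57, 28.3 ± 16.1, 28.7 ± 19.6 and 28.9 ± 17.8 with the inhibitors. Endothelial genes, led by Pecam1 with 2 of 3 tested, were at 21.2 ± 2.19, 33.0 ± 1.84, 5.96 ± 0.708, 18.5 ± 3.64, 17.5 ± 1.94 and 19.2 ± 3.34 CPM in naive, IL-4/IL-13, tunicamycin, Sal003, Oligo and Oli_ISR libraries, and Kdr, the other gene tested, ran against Pecam1, at 9.82 ± 1.68, 1.02 ± 0.396, 3.76 ± 0.803, 11.5 ± 4.03, 15.001 ± 1.89 and 12.4 ± 3.19 CPM. Dendritic cell genes, led by Zbtb46 with 3 of 4 tested, were at 5.84 ± 1.37, 6.71 ± 0.743, 1.46 ± 0.440, 1.97 ± 0.2497, 1.72 ± 0.396 and 1.85 ± 0.506. T cell genes were at most 11.5 ± 1.52 CPM, led by Cd4, and Cd3d, Cd3e and Cd3g had at most 3 counts in every library. B cell genes were at most 2.61 ± 0.428 CPM, mast cell and basophil genes at most 0.859 ± 0.307 and erythroid genes at most 0.0423 ± 0.0284. The part of these cells in the differences of the 10 genes was not tested.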

How the data were processed

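RNA of macrophages from 4 mice in 6 conditions (24 libraries) was sequenced as single reads. Per the labels and methods, the authors trimmed reads (Cutadapt 1.8), aligned them to GRCm39 (STAR 2.7) and counted them per gene (HTSeq 0.9.1); the strand setting is not given in the sources used here. The deposited values used are these raw counts. The 5 rows that name no gene held 12.7% to 15.2% of counts and were left out, and the authors' RSEM table was not used. Counts were tested with edgeR 4.0.16 (quasi-likelihood, TMM, filterByExpr, 1 model over all libraries, 13679 genes) and called at an adjusted p under 0.05. This model held a term for each condition and none for the mouse, so the main test did not use the pairing of libraries by mouse. CPM used TMM-scaled totals, and TPM was computed from counts and exon lengths. The median biological coefficient of variation was 7.06%. Same-numbered libraries came from the same mouse, and their deviations from group means had a median r of 0.236, with 56 of 60 pairs over 0.1, against −0.0543 between mice. Promoter windows were taken from RefSeq (GRCm38.p6). Named genes were the 10 chosen, of each list the called genes with the highest and the lowest change in a comparison, the genes that overlap the 10, genes of the treatments (1 of them is not reported here), and the 3 genes most like each of 6 of the 10; Mycn, Cad and Socs1 were added after their values were seen. The genes and lists were chosen with earlier results of these data known. Alternatives were DESeq2 1.42.0, upper-quartile scaling, other filters, only the groups compared, a replicate block and leaving out each mouse. The test was checked on simulated data, and the outcome is not reported here.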

Additional observations from a re-analysis of the deposited data

Results flagged for a closer look

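Of 60 sets of 4 libraries (10 genes in 6 conditions), 3 held a library far from the others by Dixon's criterion, and chance gives about 1 in 20. Nab1 in mouse 2 was lowest of the naive libraries at 89.5 CPM, with a gap of 0.923 of the range. Nab1 in mouse 4 was lowest of the Oli_ISR libraries at 76.1 CPM, with a gap of 0.919. Mxd1 in mouse 5 was lowest of the IL-4/IL-13 libraries at 30.1 CPM, with a gap of 0.842.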

How the results depend on the processing

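Of the repeated log2 fold changes of the 10 genes, 1391 kept their direction and side of the threshold, 55 lost the call, 24 gained one and 14 changed sign, and all 14 were differences that did not pass the test. With a 2.5-fold change required in addition, the genes called lower fell to 1 for IL-4/IL-13 against naive and to 1 each for Sal003, Oligo and Oli_ISR against IL-4/IL-13, and those called higher to 0 for tunicamycin, Sal003, Oligo and Oli_ISR. Oligo against Oli_ISR then had 0 higher and 0 lower, tunicamycin against naive 1 higher, Sal003 and Oli_ISR against naive 2 higher and 1 lower each, and Oligo against naive 1 lower. Leaving out each mouse gave 1 to 2 genes higher with Sal003 against IL-4/IL-13, with 1 without mouse 1.

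Changed signs of the log2 fold change were Max in Oligo against Oli_ISR (0.0119 with upper-quartile scaling, −0.0703 to 0.0188 on leaving out each mouse), Nab1 with tunicamycin against naive (0.0453 with no filter on low counts, −0.0999 to 0.0524), Nab2 in Oligo against naive (−0.0142 with upper-quartile scaling, −0.0215 with at least 10 counts in every library, −0.0104 to 0.0724), Mxd1 with tunicamycin against Oli_ISR (0.000358 with no filter, −0.1104 to 0.0264), Mnt in Oligo against Sal003 (−0.00625 with DESeq2) and Myc in Oli_ISR against Sal003 (−0.0616 to 0.1042). The cause was not tested. The lower level of Egr3 in Oligo than in Oli_ISR did not pass without mouse 2 (adjusted p = 0.074, edgeR).

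With the mouse as a replicate block, Egr1 with IL-4/IL-13 (log2 fold change −0.24, adjusted p = 0.034) and Mxi1 with Sal003 (−0.13, adjusted p = 0.041) passed the test, as did Max between tunicamycin and Oli_ISR (0.11, adjusted p = 0.038), Mxi1 between Oligo and Sal003 (0.16, adjusted p = 0.01) and Nab2 between Oli_ISR and Sal003 (0.15, adjusted p = 0.035). The block changed no other call of the 10 genes. Egr3, with 5 to 27 counts outside naive cells, is limited by depth, and the strand setting and the identity of the Oligo and Oli_ISR groups were not settled.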
